A study of Mus musculus with 48 samples.

Results

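The comparison is of DNA joints formed in arrested WT *vAbl* cells with and without the compound L82-G17, read from the Jκ1 coding end (CE) bait. Its 6 libraries, of 48 in the series, were chosen by their labels: 3 from cells given STI-571 (3 μM, 96 h) with L82-G17 (25 μM) and 3 from cells given STI-571 with DMSO. *vAbl* cells are mouse progenitor B cells transformed by the Abelson kinase. STI-571 blocks that kinase, arrests the cells in G0-G1 and lets RAG1/2 cut the Igκ locus, and the inhibitor was added on the day STI-571 was. WT is a single clone in the study's methods. The paper states that its experiments were biologically repeated 3 times, but it does not mention L82-G17. No label says whether the libraries of a group came from separate cultures, so p-values measure the spread between libraries, which may be technical. Values from 3 arrested libraries with L67 (5 μM) and 3 cycling libraries without STI-571 are given for orientation, and the L82-G17 effect is compared at the end with that from the signal end bait in WT and from the coding end bait in *Ku70-/-* *vAbl* cells, each arrested with STI-571 and with 3 L82-G17 and 3 DMSO libraries. L82-G17 is known as an inhibitor of DNA ligase I, and L67 as an inhibitor of DNA ligases I and III. In the paper, ligase I protein of *Ku70-/-* *vAbl* cells fell after STI-571 until it was nearly absent. Whether the differences below come from these targets or from cell viability was not tested.

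RAG1/2 cut DNA between a gene segment and its recombination signal sequence (RSS), which begins with a heptamer. The cut leaves a hairpin-sealed coding end on the gene side and a blunt signal end on the RSS side. Coding ends must be opened before joining, which can leave short palindromic additions, and in WT cells both kinds of end are joined by nonhomologous end joining (NHEJ), whose ligase is DNA ligase IV. Vκ genes lie in both orientations. A deletional Vκ points the same way as Jκ and is joined by deletion of the DNA between, and an inversional Vκ is joined by inversion.

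The bait is the coding end of Jκ1 (Igkj1, ENSMUSG00000076604.1), which begins at position 70672556 of chromosome 6 (mm9, plus strand). The break sites below are those on which the comparison turns: Jκ1, 3 Vκ genes whose share of V-J joints fell (Igkv3-2, Igkv1-88) or rose (Igkv8-19), and an RSS in the intron between Jκ5 and Cκ. Each is written 5′ to 3′ with the heptamer in capitals, and the break is at the side of the heptamer next to the gene segment.

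Jκ1, chr6:70672517-70672575, plus strand: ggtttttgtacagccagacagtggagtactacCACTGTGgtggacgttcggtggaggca

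Igkv3-2, chr6:70649042-70649089, plus strand, deletional: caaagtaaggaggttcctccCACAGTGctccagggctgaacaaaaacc

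Igkv1-88, chr6:68812231-68812278, minus strand, inversional: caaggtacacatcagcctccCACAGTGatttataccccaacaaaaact

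Igkv8-19, chr6:70290842-70290889, minus strand, inversional: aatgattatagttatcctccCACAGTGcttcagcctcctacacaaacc

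Intronic RSS, chr6:70674988-70675035, plus strand: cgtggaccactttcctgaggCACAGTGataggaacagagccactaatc

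The joints themselves are shown next, read from the libraries in the direction Vκ to Jκ1, because they define the classes compared. They are the most frequent DMSO joint of each kind. Capitals mark bases that both ends could have supplied (microhomology) or that align to neither end (insertion). The insertion shown is the reverse complement of the Jκ1 bases beside it. In the direct joint the Igkv3-2 end had lost 3 bases and the Jκ1 end none.

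Direct, Igkv3-2: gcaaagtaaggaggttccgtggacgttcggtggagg

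Microhomology of 2 bp, Igkv16-104: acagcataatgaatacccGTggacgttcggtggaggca

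Insertion of 2 bp, Igkv3-2: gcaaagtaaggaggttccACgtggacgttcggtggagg

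Microhomology of 2 bp, intronic RSS: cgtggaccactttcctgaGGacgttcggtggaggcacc

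Microhomology of 3 bp, Jκ4 signal end: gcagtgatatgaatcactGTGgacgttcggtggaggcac

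Each library was taken from 500000 read pairs, duplicates were kept, and every junction counted. Totals were 193206, 186395 and 213122 junctions with L82-G17 and 385847, 370032 and 370027 with DMSO. Every library was read in 2 sequencing runs, so no treatment had a run of its own. Exact two-sided permutation tests over libraries compared the groups, and with 3 against 3 the smallest p they can give is 0.1. All 19 of 28 measures whose groups did not overlap gave p = 0.1, the smallest the exact test can give (Benjamini-Hochberg adjusted 0.147). No difference in these measures therefore passed a threshold of 0.05, and they are described by their size and by whether the groups overlap. For V-J efficiency, counting error is small beside the spread between libraries: the widest 95% Wilson interval of a library is ±0.136 percentage points. For the share of hybrid joints, described below, it is ±0.03 points, beside SDs between libraries of 0.0401 with L82-G17 and 0.0255 with DMSO. Copies of a molecule make such intervals too narrow.

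V-J efficiency, which counts junctions lying no more than 200 bp from a Vκ break per 100 read pairs, was lower with L82-G17. It was 35.8, 34.6 and 39.6% in the 3 L82-G17 libraries (mean 36.7% ± 2.63, SD, n = 3). In the DMSO libraries it was 72.4, 68.9 and 69.2% (70.2% ± 1.91, n = 3). The groups lay far apart, with a difference of -33.5 percentage points and a ratio of means of 0.523 (exact permutation p = 0.1). Cycling WT cells gave 5.12% ± 0.969 (n = 3), and the lowest L82-G17 library, at 34.6%, lay well above the highest cycling one, at 5.88%. The L67 libraries gave 66.3% ± 1.24 (n = 3), at a different dose. As a share of all junctions rather than of read pairs, V-J junctions differed by -0.63 percentage points.

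**Figure D1:**
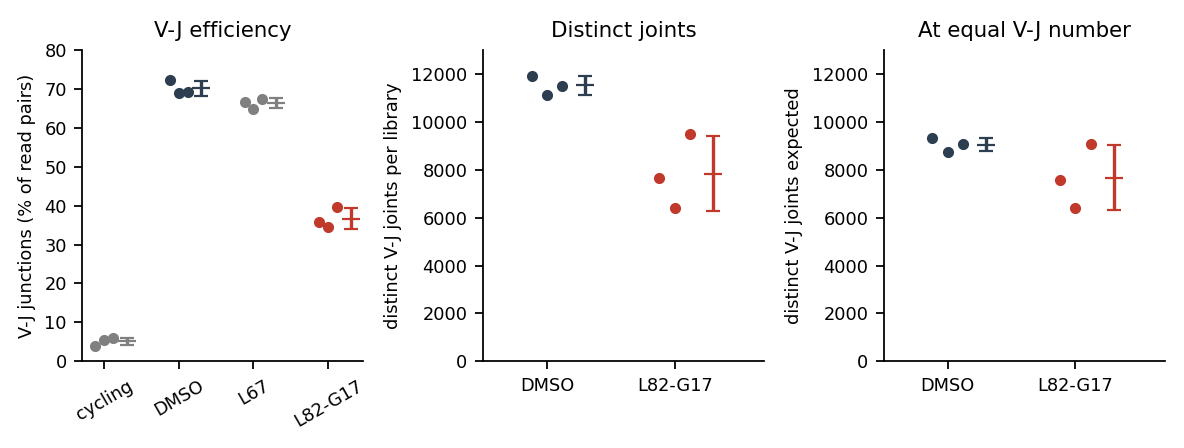
V-J efficiency in percent of read pairs for cycling, DMSO, L67 and L82-G17 libraries (left), distinct V-J joints per library (middle) and distinct V-J joints expected at one equal number of V-J junctions (right). Points are libraries, and bars are the mean with SD (n = 3). The L82-G17 libraries lie at 34.6 to 39.6% V-J efficiency, below every DMSO library, and at equal numbers of V-J junctions their distinct joints overlap those of DMSO.

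Fewer different joints were seen as well. A distinct joint is one combination of prey position, prey strand, bait end and overlap or gap. The L82-G17 libraries held 7646, 6386 and 9499 distinct V-J joints and the DMSO libraries 11937, 11125 and 11506. The groups did not overlap, and the ratio of means was 0.681, nearer to 1 than that of all V-J junctions. Each distinct joint was counted 23.8 ± 3.12 times with L82-G17 and 30.4 ± 0.482 times with DMSO (SD, n = 3). At an equal number of V-J junctions (172915, that of the smallest library), 7556, 6386 and 9083 distinct joints were expected with L82-G17 against 9313, 8749 and 9092 with DMSO. At equal number the groups overlapped, because the 3rd L82-G17 library reached the DMSO range (exact permutation p = 0.2). Adding the far end of the prey to the definition gave 43166, 30416 and 64525 distinct molecules with L82-G17 and 86591, 75436 and 83696 with DMSO, a ratio of 0.562.

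The classes of junction were not lowered alike. Junctions between the Vκ and Jκ regions, hybrid Vκ joints and intronic RSS joints had ratios to DMSO nearer to 1 than V-J joints did, and joints of Jκ1 to the signal ends of Jκ2, Jκ4 and Jκ5 had a lower ratio. These ratios count every copy. Distinct joints were not compared for the sides of the Jκ breaks, the intronic RSS or the interval between the Vκ and Jκ regions. Apart from V-J, hybrid and off-chromosome 6 totals, the classes in the plot of junction classes were drawn up after their values were seen, and their values are a description.

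**Figure D2:**
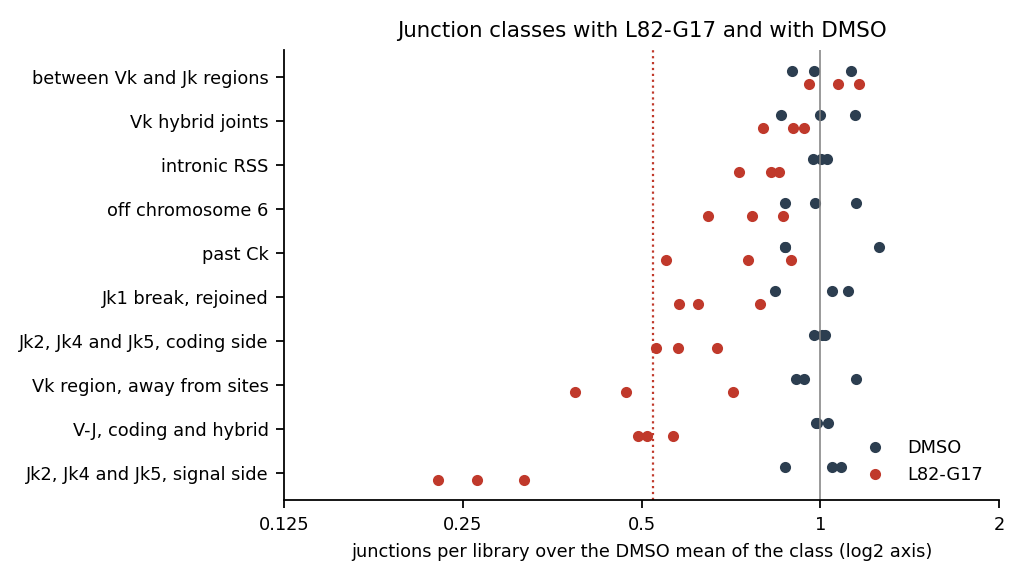
Junctions per library in 10 classes, each divided by the DMSO mean of its class, on a log2 axis. Points are libraries (n = 3 per group) and the dotted line marks the ratio for V-J efficiency, 0.523. The signal side of Jκ2, Jκ4 and Jκ5 lies left of the line (mean 0.269) and the junctions between the Vκ and Jκ regions lie around 1 (mean 1.06).

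Most V-J junctions were direct in both groups, and the L82-G17 libraries held a smaller share of insertions and a larger one of microhomology over 1 bp. Direct joints made up 71.5, 71.9 and 70.5% of V-J junctions with L82-G17 and 70.3, 70.6 and 71.0% with DMSO, which overlap (exact permutation p = 0.3). Insertions made up 12.7, 12.6 and 13.4% with L82-G17 against 15.04, 14.8 and 14.8% with DMSO. The groups did not overlap, and the means differed by -1.97 percentage points (exact permutation p = 0.1). Microhomology of 1 bp was 12.9% ± 0.309 and 12.4% ± 0.238 (SD, n = 3), with overlap. Microhomology over 1 bp was 2.61, 2.86 and 2.99% with L82-G17 against 2.10, 2.08 and 2.10% with DMSO, 1.35 times as high in the mean with no overlap (exact permutation p = 0.1). The L67 libraries, at a different dose, gave 2.51% ± 0.0759 (2.43 to 2.58%, SD, n = 3), above every DMSO library and below every L82-G17 library.

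Where each distinct joint was counted once, insertions were the larger class: 54.7, 53.1 and 57.4% with L82-G17 against 63.8, 63.0 and 62.6% with DMSO. Direct joints were then 34.0, 35.8 and 31.6% against 26.8, 27.1 and 27.3%. By this count neither class overlapped, and the differences were -8.09 and 6.74 percentage points in place of -1.97 and 0.71 (exact permutation p = 0.1 each). Shares of distinct joints, here and below, were not taken at an equal number of V-J junctions. The L82-G17 library with most distinct joints, 9499, had the largest share of insertions and the smallest of direct joints in its group. The part of library depth in these differences was not tested.

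By length, the difference in microhomology lay at 2 and 4 bp. The 2-bp class was 2.41% ± 0.165 with L82-G17 and 1.78% ± 0.0111 with DMSO, and the 4-bp class was 0.0956% ± 0.0167 and 0.0463% ± 0.00476 (SD, n = 3). At 3 bp the groups overlapped, at 0.205% and 0.188%. Insertions of 1, 2, 3, 4 and 5 bp were each lower with no overlap, with ratios of means of 0.882, 0.893, 0.895, 0.782 and 0.707. Of the 15 longer insertions, from 6 to 20 bp, every length overlapped between groups.

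**Figure D3:**
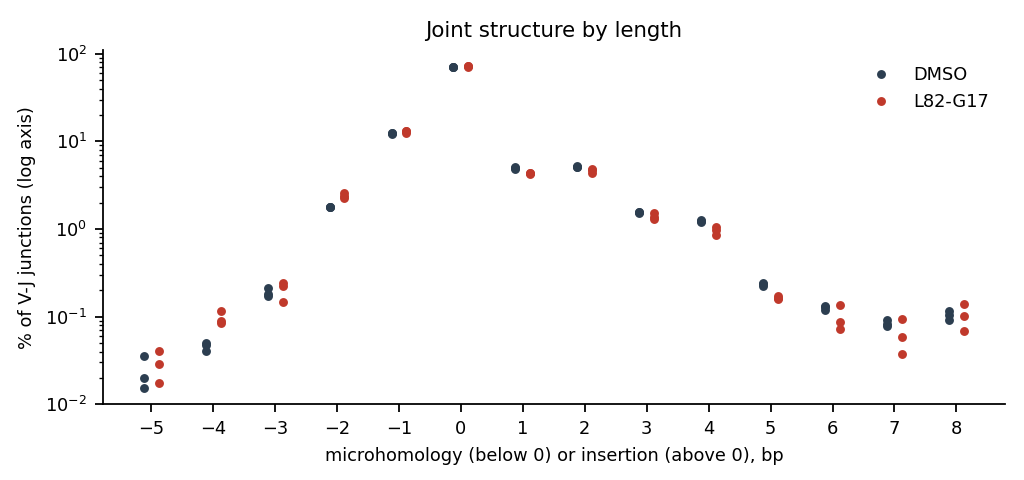
Share of V-J junctions by length of microhomology (below 0) or insertion (above 0), in percent on a log axis, with points for libraries (n = 3 per group). Direct joints stand at 0. The L82-G17 points lie above DMSO at 2 and 4 bp of microhomology and below it at insertions of 1 to 5 bp.

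The Vκ sites used also differed between the groups, and their part in the difference in microhomology was not tested. The 2-bp joint of Igkv16-104 printed above was counted 1933, 1884 and 2635 times with L82-G17 and 3175, 3024 and 3171 times with DMSO, or 11.7 ± 1.42 against 8.91 ± 0.229 per 1000 V-J junctions (SD, n = 3). When the sites were weighted by their DMSO usage, an alternative added after the data were seen, microhomology over 1 bp was 2.36, 2.60 and 2.46% with L82-G17 against 2.11, 2.11 and 2.06% with DMSO. The groups still did not overlap, and the difference was 0.38 in place of 0.73 percentage points. The same weighting left insertions at 12.8, 12.8 and 13.3% against 15.1, 14.8 and 14.8%.

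The inserted bases were then compared with the bases beside them. An insertion was called palindromic when it equals the reverse complement of the adjoining bases of the read on either side. Opened hairpins can leave such bases, but the call did not require an untrimmed end. Short insertions can also match by chance, so the shares below do not measure origin. Palindromic insertions made up 66.4, 68.3 and 62.1% of insertion joints with L82-G17 and 63.3, 65.0 and 64.8% with DMSO, which overlap. Those palindromic to the Vκ end were 18.5, 18.1 and 17.8% against 16.3, 16.3 and 17.1%, without overlap, and those palindromic to the Jκ1 end were 49.1% ± 3.35 against 48.9% ± 0.780 (SD, n = 3). Joints with insertions of 4 bp or more were 2.31, 2.08 and 3.35% of coding joints with L82-G17, against 3.42, 3.09 and 3.26% with DMSO. The 3rd L82-G17 library lay in the DMSO range and the others below it, so that the difference of -0.68 percentage points became -1.06 without that library and -0.43 without the 2nd. Mean insertion length was 3.06, 2.74 and 3.85 bp against 3.51, 3.22 and 3.36 bp, and its direction also rests on single libraries. By distinct joints, insertions of 4 bp or more were 22.4, 19.7 and 26.8% of coding joints with L82-G17 against 30.5, 28.3 and 28.9% with DMSO. The groups did not overlap, and the difference was -6.26 percentage points. The palindromic share by this count was 31.6, 32.8 and 29.1% against 26.1, 26.9 and 27.1%, also without overlap (4.49 points in place of 1.19).

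Both coding ends were untrimmed slightly less often with L82-G17. The Vκ end kept all its bases in 18.1, 17.6 and 18.2% of coding joints with L82-G17 and in 19.1, 19.2 and 19.4% with DMSO. The Jκ1 end did so in 40.7, 41.2 and 40.5% against 41.5, 42.0 and 41.8%. Neither pair of groups overlapped, and the differences were -1.27 and -0.96 percentage points (exact permutation p = 0.1 each). Mean loss at the Jκ1 end was 1.29 ± 0.0116 bp with L82-G17 and 1.24 ± 0.00533 bp with DMSO, without overlap, and at the Vκ end 2.72 ± 0.0731 and 2.65 ± 0.0282 bp, with overlap (SD, n = 3). In direct joints alone the difference in untrimmed ends was -0.08 percentage points for Jκ1 and -1.51 points for Vκ. Mean loss in direct joints differed by 0.030 bp at the Jκ1 end and by 0.133 bp at the Vκ end. Where each distinct joint was counted once, the untrimmed Vκ share was higher with L82-G17 by 0.62 points. Mean loss then differed by -0.00827 bp at the Jκ1 end and by -0.66 bp at the Vκ end. The directions of these measures therefore depend on how copies are counted.

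The losses had a fixed pattern that both groups shared. The most frequent loss at the Vκ end was 3 bp, in 27.1% ± 0.420 of joints with L82-G17 and 28.9% ± 0.142 with DMSO (SD, n = 3). At the Jκ1 end 0 bp and then 2 bp were most frequent, the latter at 28.8% ± 0.208 and 30.2% ± 0.241. L82-G17 libraries were lower at these peaks and higher at losses on both sides of the 3-bp and 2-bp peaks: Vκ losses of 2 and 4 bp were 13.3% and 7.78% against 12.6% and 7.02%, and Jκ1 losses of 1 and 3 bp were 15.04% and 10.5% against 14.3% and 9.79%, each without overlap. A Jκ1 loss of 4 bp was 2.20% against 1.59%, also without overlap. These loss profiles count every copy and, like the untrimmed shares above, were not weighted by DMSO site usage. The part of site usage in them was not tested. The share of junctions within 10 bp of the break, among those within 100 bp, was 98.3% ± 0.692 with L82-G17 and 98.0% ± 0.207 with DMSO, with overlap. By distinct joints the difference was 4.85 percentage points in place of 0.28, with overlap.

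**Figure D4:**
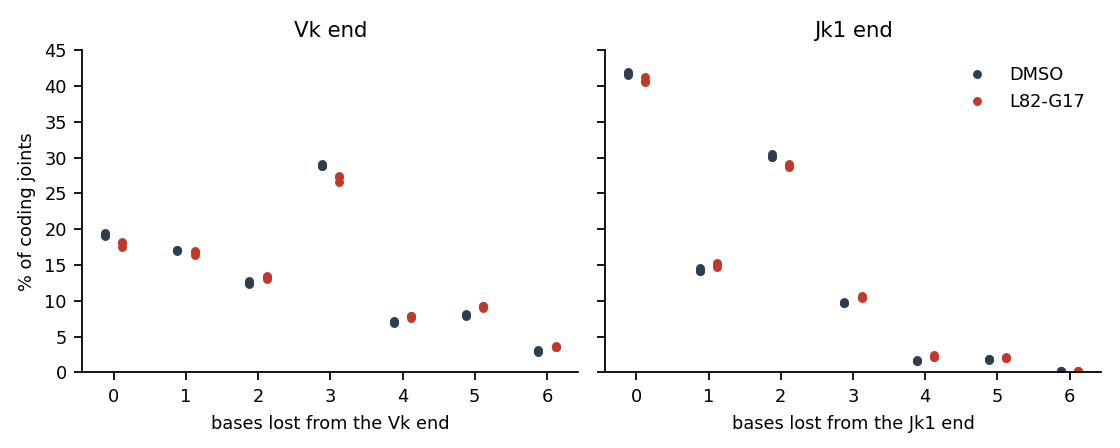
Percent of coding joints by the number of bases lost from the Vκ end (left) and from the Jκ1 end (right), with points for libraries (n = 3 per group). Losses of 3 bp at the Vκ end and of 0 and 2 bp at the Jκ1 end are the most frequent in both groups and are slightly lower with L82-G17.

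The Vκ genes nearest to Jκ1 took a smaller share of V-J joints with L82-G17. The Vκ region was divided into 4 windows of 790 kb. The window nearest Jκ1 took 28.05, 27.5 and 27.8% of V-J junctions with L82-G17 and 31.6, 32.1 and 31.9% with DMSO, a difference of -4.10 percentage points without overlap (exact permutation p = 0.1). The most distal window took 20.6% ± 0.235 against 19.2% ± 0.401, the next 16.5% ± 0.248 against 15.8% ± 0.290, and the 3rd 35.1% ± 0.492 against 33.1% ± 0.441 (SD, n = 3). None of these overlapped, and all were higher with L82-G17. In cycling cells the nearest window took 38.4% ± 0.770 (SD, n = 3), above every DMSO library. In the L67 libraries it took 29.1% ± 0.657 (28.4 to 29.7%), below every DMSO library and above every L82-G17 library, at a different dose. By distinct joints the difference in the nearest window was -2.08 points, without overlap, while the 2 most distal windows overlapped (differences of 0.64 and 0.63 points, exact permutation p = 0.2 and 0.4).

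Within the nearest window the difference lay in the deletional sites. Its 21 deletional sites took 13.4% ± 0.397 of V-J junctions with L82-G17 and 17.7% ± 0.379 with DMSO, while its 25 inversional sites took 14.4% ± 0.161 and 14.2% ± 0.321, with overlap (SD, n = 3). Over the whole region deletional sites took 39.8, 38.5 and 39.2% against 40.4, 40.8 and 42.1%. The 27 deletional sites of the most distal window took 20.5% ± 0.230 with L82-G17 and 18.9% ± 0.415 with DMSO, without overlap (SD, n = 3).

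Use of single sites was fitted with limma on log2 junctions per 1000 V-J junctions. Of 138 sites, 115 had enough junctions to be tested. 23 rose, or 20.0% of those tested, and 18 fell, or 15.7%, at an adjusted p under 0.05, and the median change over all sites tested was 0.04 on the log2 scale. These counts depend on the DMSO libraries: without the first there were 12 rises and 12 falls, without the second 13 and 13, and without the 3rd 11 and 10. The changes are in shares of a lowered total: a site whose share did not change had about 0.523 times as many junctions. Counted by distinct joints, 4 sites rose and 3 fell, all among those called above, of 74 with enough joints to be tested.

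**Figure D5:**
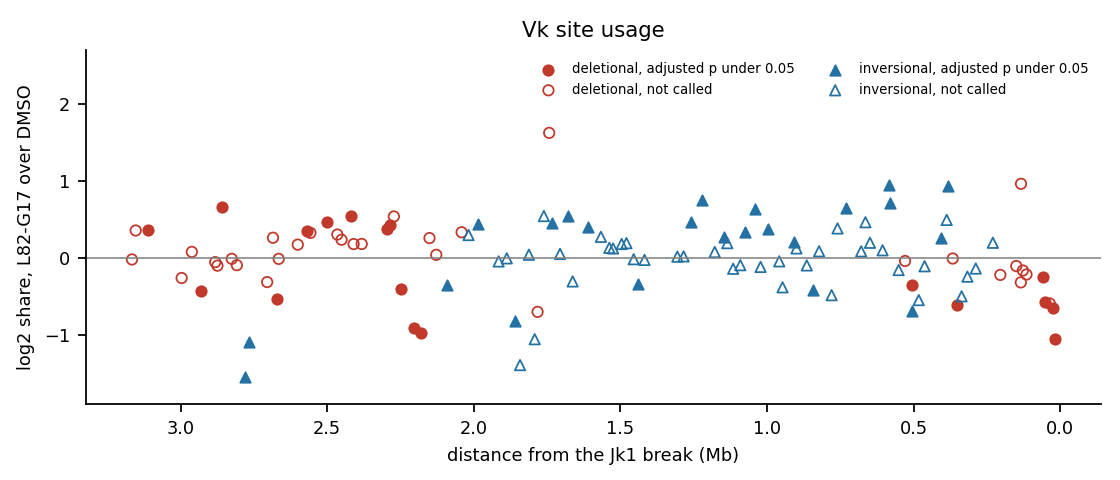
Change in the share of V-J junctions at each of 115 Vκ sites (log2, L82-G17 over DMSO) against its distance from the Jκ1 break in Mb. Circles are deletional and triangles inversional sites, and filled symbols are the 41 sites past the limma threshold. Near Jκ1 the filled circles all lie below 0, and the filled triangles in that window lie above 0 with 1 exception.

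The falls included some of the most used sites. Igkv3-2, the most used site with DMSO, took 34.9, 34.6 and 35.7 per 1000 V-J junctions with DMSO and 22.1, 23.8 and 21.2 with L82-G17. Its log2 change was -0.65 ± 0.069 (SE, limma adjusted p = 0.00271), and its junctions numbered 0.333 of those with DMSO. Igkv1-88, an inversional gene of the second window, took 27.5, 27.6 and 27.1 with DMSO and 15.6, 14.97 and 15.99 with L82-G17 (log2 -0.82 ± 0.060, limma adjusted p = 0.00128). Igkv8-24 took 21.5, 23.3 and 22.7 against 13.1, 14.9 and 13.8 (log2 -0.69 ± 0.077, limma adjusted p = 0.00271). At all 3 sites the groups lay clear of each other, and the L67 means of 30.1, 20.6 and 16.2 per 1000, at a different dose, lay between them.

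The Vκ gene nearest to Jκ1 fell too. Igkv3-1, the outermost annotated Vκ gene on this side, took 11.6, 11.3 and 9.93 per 1000 with DMSO and 5.43, 5.02 and 5.39 with L82-G17 (log2 -1.05 ± 0.085, limma adjusted p = 0.00128). The largest fall was at a rarely used distal gene, Igkv9-124, with 2.07, 1.81 and 1.90 against 0.821, 0.503 and 0.681 per 1000 (log2 -1.54). Igkv9-123 beside it, Igkv1-99 and Igkv14-100 had log2 changes of -1.09, -0.98 and -0.91. They completed the 8 largest falls among sites past the limma threshold whose groups did not overlap. Copies included, Igkv9-123 had only 51, 73 and 82 junctions with L82-G17 against 340, 237 and 263 with DMSO. Igkv1-99 had 48, 63 and 88 against 227, 271 and 240. The outermost gene at the far end, Igkv2-137, took 0.498 ± 0.0940 and 0.50 ± 0.153 per 1000 (SD, n = 3) and was not called (limma adjusted p = 0.972).

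The 8 largest rises among sites past the limma threshold without overlap included Igkv8-19 and Igkv6-29, whose junctions were about as many as with DMSO. At the others the ratio of junctions to DMSO ran from 0.765 to 0.881. Igkv8-19 took 3.07, 3.86 and 3.28 per 1000 with DMSO and 6.54, 6.59 and 6.27 with L82-G17 (log2 0.93 ± 0.10, limma adjusted p = 0.00271). Its mean number of junctions was 0.993 times that with DMSO. Igkv6-29 took 0.335, 0.365 and 0.304 against 0.698, 0.711 and 0.535, and its number was 1.01 times that with DMSO. Igkv4-58 took 9.75, 8.66 and 8.80 against 17.2, 16.2 and 12.8 (log2 0.75). With L67, Igkv8-19, Igkv6-29 and Igkv4-58 took 3.32, 0.304 and 8.76 per 1000 in the mean, nearer to DMSO than to L82-G17. The others were Igkv8-28, Igkv17-127, Igkv18-36, a site with no annotated gene whose coding side ends at 69631400, and Igkv2-109, with log2 changes from 0.55 to 0.72. Of these 8, 6 are inversional, as are 65 of the 115 sites tested and 16 of the 23 that rose.

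The 12 sites most used with DMSO did not move together. Beside Igkv3-2, Igkv1-88 and Igkv8-24, which fell, Igkv12-44 and Igkv1-135 rose. Igkv12-44 took 29.0, 29.3 and 28.8 per 1000 with DMSO and 33.2, 33.0 and 34.3 with L82-G17 (log2 0.21 ± 0.057, limma adjusted p = 0.0348). Igkv1-135, near the far end of the locus, took 23.4, 22.8 and 22.7 against 29.2, 29.3 and 30.5 (log2 0.37 ± 0.058, limma adjusted p = 0.00736). The other 7, Igkv3-12, Igkv4-50, Igkv3-7, Igkv1-117, Igkv12-46, Igkv5-39 and Igkv6-32, were not called, with log2 changes from -0.22 to 0.20.

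By gene family, the calls are to be read beside 20.0% rises and 15.7% falls over all sites tested and, as above, with fewer calls when a DMSO library was left out. Igkv3, Igkv9 and Igkv14 held falls and no rises. The 8 Igkv3 sites, all deletional and near Jκ1, took 10.5% ± 0.417 of V-J junctions with L82-G17 and 13.8% ± 0.257 with DMSO (SD, n = 3). Of these 8, 3 fell and none rose, with a median log2 change of -0.45. Of the 4 Igkv9 sites, 3 fell and none rose (median -0.81), and of the 4 Igkv14 sites 2 fell and none rose (median -0.22). Of the 4 Igkv2 sites, 3 rose and none fell (median 0.41), and the family took 3.31% ± 0.101 against 2.41% ± 0.0426. Of 22 Igkv4 sites tested, 5 rose and 1 fell (median 0.07), and of 9 Igkv8 sites 3 rose and 1 fell (median -0.01). Among the 6 other families with 2 or more tested sites, 5 sites rose and 4 fell. Igkv15, Igkv16, Igkv18 and Igkv19, with 1 tested site each, rose, and Igkv7, Igkv11 and Igkv13, also with 1 each, were not called (log2 0.47, -0.09 and -0.70).

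Heptamer and annotation separated the changes little. Of 100 tested sites with the full CACAGTG heptamer, 21 rose and 17 fell (median log2 change 0.03), and of 15 without it 2 rose and 1 fell (median 0.09). Sites next to an annotated gene gave 20 rises and 14 falls among 89 tested, and sites with none gave 3 rises and 4 falls among 26. By window and orientation, of 15 tested deletional sites nearest Jκ1, 6 fell and none rose, whereas of 20 inversional sites in the same window 5 rose and 1 fell. In the most distal window, 5 of 24 deletional sites rose and 2 fell, and both inversional sites tested there, Igkv9-124 and Igkv9-123, fell.

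Hybrid joints, in which the Jκ1 coding end is joined to a Vκ signal end, were a larger share of V-J junctions with L82-G17. Their share was 0.333, 0.405 and 0.339% with L82-G17 and 0.236, 0.186 and 0.215% with DMSO, without overlap (ratio of means 1.69, exact permutation p = 0.1). Their numbers overlapped, at 597, 701 and 672 against 855, 640 and 745, unlike those of all V-J junctions. Coding-coding joints per hybrid joint were 8.12 ± 0.157 against 8.88 ± 0.176 on the log2 scale (SD, n = 3). Told apart by the side of the break instead of the strand, the difference was -0.15 in place of -0.76, and by distinct junctions it was -0.32. Hybrid joints were found at 59.3 ± 10.4 Vκ sites with L82-G17 and 67 ± 4.58 with DMSO, and the L67 and cycling libraries had shares of 0.272% ± 0.0426 and 0.627% ± 0.311 (SD, n = 3).

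Junctions within 2 kb of the Jκ1 break, which hold Jκ2 to Jκ5, were lowered more than V-J junctions. They were 0.790, 0.946 and 0.897% of read pairs with L82-G17 and 2.30, 2.74 and 2.60% with DMSO, a ratio of means of 0.345 without overlap (exact permutation p = 0.1). Per V-J junction the log2 value was -5.39 ± 0.170 with L82-G17 and -4.79 ± 0.167 with DMSO (SD, n = 3), also without overlap. Where the region was extended to 2 kb past Jκ5, which adds the intronic RSS, this difference went from -0.60 to -0.00089, and by distinct junctions it was -0.17, with overlap (exact permutation p = 0.2).

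The side of the Jκ break divided these joints. The Jκ1 coding end was joined to the signal side of Jκ2, Jκ4 and Jκ5 in 2225, 3103 and 2588 junctions with L82-G17 and in 8554, 10611 and 10263 with DMSO, a ratio of 0.269. The ratio was 0.256 at Jκ2, 0.271 at Jκ4 and 0.282 at Jκ5. Joints to the coding side of the same segments numbered 1140, 1239 and 1440 against 2188, 2167 and 2103, a ratio of 0.591, beside 0.523 for V-J junctions. Per 1000 V-J junctions, coding side joints were 6.93 ± 0.495 with L82-G17 and 6.14 ± 0.129 with DMSO (SD, n = 3), without overlap. The groups did not overlap on either side. Joints of the bait to its own signal side, as when Jκ1 is rejoined, were 483, 353 and 380 against 640, 681 and 513, a ratio of 0.663. Cycling libraries held 395 ± 52.0 of these joints (343 to 447, SD, n = 3), a range that overlaps that of the L82-G17 libraries.

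Many signal side joints of Jκ2 and Jκ5 were listed with over 10 bp of overlap between bait and prey. In the most frequent of them the read runs from the Jκ2 RSS into Jκ1, and the prey alignment continues through the like bases of Jκ2 past its 3′ end. These overlaps numbered 1131 ± 112 per library with L82-G17 and 4524 ± 665 with DMSO (SD, n = 3). They are counted here with the signal side of the segment whose 3′ end they reach, and all had the signal side strand. Without them the ratios were 0.475 at Jκ2, 0.271 at Jκ4 and 0.281 at Jκ5, so the value at Jκ2 depends on them.

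Joints to the intronic RSS, between Jκ5 and Cκ, had a ratio nearer to 1. They numbered 6574, 5804 and 6778 with L82-G17 and 8142, 7980 and 7721 with DMSO, a ratio of 0.803 without overlap. Per 1000 V-J junctions they were 34.8 ± 1.65 and 22.7 ± 0.432 (SD, n = 3), higher with L82-G17. The L67 libraries gave 25.8 ± 1.71 and cycling libraries 39.8 ± 11.1 per 1000 (SD, n = 3).

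Junctions between the Vκ region and the Jκ region did not differ in number beyond the spread between libraries. They numbered 2051, 1836 and 2226 against 2161, 1875 and 1719, and per 1000 V-J junctions 11.1 ± 0.431 against 5.46 ± 0.501 (SD, n = 3), without overlap. They gathered at 10 positions with at least 300 junctions over the 6 libraries, 9 of which had CAC, the opening of a heptamer, within the 12 bases past the junction. The 4 positions farthest from Jκ1, between 6.517 and 8.26 kb before it, were each more frequent with L82-G17 by number, by 1.35 to 1.60 times in the mean, with overlap at 2 of them. The largest of these, 8.008 kb before Jκ1, had 528, 437 and 763 junctions against 390, 318 and 408, without overlap, and its heptamer is not the consensus. The break, with the 7 bases in capitals, is shown because it is the position of this interval with most junctions.

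Position 8.008 kb before Jκ1, chr6:70664529-70664576, plus strand: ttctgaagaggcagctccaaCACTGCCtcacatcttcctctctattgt

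The positions 5.094 and 5.448 kb before Jκ1 had ratios of 1.10 and 0.882, with overlap. Those nearer to Jκ1, between 2.041 and 4.088 kb before it, had ratios from 0.448 to 0.681. In the stretch just past Cκ, junctions numbered 923, 567 and 780 with L82-G17 and 1297, 900 and 901 with DMSO, which overlap.

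Translocations, the junctions off chromosome 6, were few. They numbered 223, 251 and 188 with L82-G17 and 253, 284 and 334 with DMSO, a log2 difference of -0.40 without overlap (exact permutation p = 0.1). The larger sequencing run alone gave -0.36 and the smaller one -0.71 (exact permutation p = 0.2 and 0.1). Per 1000 V-J junctions they were 1.24, 1.45 and 0.949 against 0.699, 0.824 and 0.966, with overlap. Counted once, distinct translocations were 109, 94 and 109 against 140, 159 and 155. The ratio of means was 0.760 for all translocations, beside 0.523 for all V-J junctions, and 0.687 for distinct translocations, beside 0.681 for distinct V-J joints. Per V-J junction the log2 difference was 0.54 by all junctions and 0.03 by distinct ones (exact permutation p = 0.2 and 0.8).

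Other antigen receptor loci took a small and uneven part. Igh took 2, 0 and 12 junctions with L82-G17 and 13, 13 and 16 with DMSO, from at most 5 distinct translocations per library. Igl, the lambda light chain locus, took 9, 20 and 12 against 6, 4 and 40, and Tcra/Tcrd took 6, 0 and 20 against 2, 0 and 2. Tcrg and Tcrb had 0 in all 6 libraries. Together, antigen receptor loci off chromosome 6 made up 7.62, 7.97 and 23.4% of translocations against 8.30, 5.99 and 17.4%, and the direction rests on the 3rd L82-G17 library. Translocations elsewhere were 206, 231 and 144 against 232, 267 and 276. Insertions were found in 34.1, 34.0 and 43.3% of translocations with L82-G17 against 57.7, 49.4 and 45.9% with DMSO, without overlap.

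The V-J difference was set beside those seen from the signal end (SE) bait in WT and from the coding end bait in *Ku70-/-* cells, which lack Ku and so NHEJ. From the signal end bait, V-J efficiency was 25.5% ± 1.62 with L82-G17 and 65.8% ± 1.53 with DMSO (SD, n = 3 each), a log2 effect of -1.37 against -0.94 from the coding end bait. Libraries of both baits may come from the same DNA, so the signal end result may not be an independent repeat. The difference of the effects from the coding end and signal end baits, 0.43, was not past the threshold (exact permutation within bait, 400 regroupings, p = 0.585). That permutation assumes no effect from either bait, and the large effects from both raise p. It therefore cannot decide whether the effect differs between baits. In *Ku70-/-* cells V-J efficiency was 20.7% ± 0.209 with L82-G17 and 20.9% ± 1.88 with DMSO (SD, n = 3 each), a log2 effect of -0.01. The difference of effects between WT and *Ku70-/-* cells was -0.93 (exact permutation within genotype, p = 0.055). It was -0.85 (exact permutation p = 0.1) with only the *Ku70-/-* controls that the study lists. The DMSO libraries of *Ku70-/-* cells hold 1 library whose distinct V-J joints came to 0.178% of read pairs, against up to 2.58% in the others, and counted by distinct joints the difference was -1.89 (exact permutation p = 0.03). Permutation within genotype assumes no effect in either genotype, and a large effect in 1 of them raises p.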

How the data were processed

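Genomic DNA of 6 WT *vAbl* libraries (L82-G17 or DMSO, 3 each) was compared, and 21 more libraries gave break sites or values for orientation. The authors cut each library to 500000 read pairs, mapped it to mm9 with TranslocWrapper.pl (Bowtie2 in their processing notes) with duplicates kept, and added bait region junctions. The deposited lists hold 1 junction per line with positions and alignment ends, not counts. Every count, percent, ratio and log2 value was computed here from those deposited junctions, not by the authors.

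Vκ sites were signal end pileups of arrested WT libraries with at least 30 junctions, none higher within 50 bp, and CAC past the break (138 sites, 92 at genes of GENCODE vM1). Joint structure was read within 20 bp of overlap or gap. Palindromic means the reverse complement of the adjoining bases, whether or not that end was trimmed. Sites named are the 12 most used with DMSO, the 8 largest rises and 8 largest falls past the threshold without overlap, and the outermost genes.

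Site usage was fitted with limma 3.58.1 after adding 1 junction to each value, and sites averaging under 50 junctions were left out. Tested on simulated data with 30 of 115 sites changed by 0.75 on the log2 scale, it recovered 93.3% and called 2 others, and none with no site changed. Members and lists were chosen with earlier results of these data known. Alternatives were each library left out, each sequencing run alone, other windows and denominators, distinct junctions or molecules, stricter sites and other limma settings. The other 21 libraries were not used here.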

Additional observations from a re-analysis of the deposited data

How the results depend on the processing

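V-J efficiency was lower with L82-G17 under all 14 alternatives run, with differences from -34.9 to -32.4 percentage points when a library was left out. No paired analysis was possible because the labels carry no replicate numbers, and the numbers given to libraries here only follow the order in which they are listed. Leaving out a library gave 11 to 21 sites called higher and 10 to 19 called lower. Centring on each library's median gave 15 higher, and distinct junctions gave 4 higher and 3 lower, with fewer sites tested. With a library left out, differences ran from -0.464 to 0.0895 bp for mean insertion length (0.0895 without L82-G17 library 2), from -0.15 to 2.91 points for the palindromic share (-0.15 without that library) and from -2.75 to 5.86 points for the antigen receptor share (-2.75 without L82-G17 library 3).

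Counting each distinct junction once reversed the untrimmed Vκ share (0.62 points), mean Vκ loss (-0.66 bp) and mean Jκ1 loss (-0.00827 bp), and made the WT against *Ku70-/-* difference -1.89 (exact permutation p = 0.03). A 5-bp window turned the share near the break to -0.79 points, and windows of equal site numbers turned the share of the second window to -0.00356 points. The cause of these changes was not tested. Depth limits translocations to single receptor loci, which rest on a few distinct joints, and PCR copies cannot be told from separate alike joints.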
